A study of Mus musculus with 13 samples.

Results

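The distribution of barcoded MLL-AF9 leukaemia clones between spleen and bone marrow was compared within 3 Ptprca mice. The comparison used 6 of the 13 libraries of the series, 1 bone marrow and 1 spleen library from each of mouse 1, mouse 2 and mouse 3, all taken at disease. Members were the barcodes at 10 CPM (reads scaled to 1000000 per library) or more in at least 2 of these 6 libraries, which gave 345 of the 2505 barcodes in the table. The organs were paired by mouse number, since both libraries of a number came from 1 animal.

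All libraries derived from c-Kit positive haematopoietic progenitors transduced with a SPLINTR barcode library. The leukaemias carried MLL-AF9, and the hosts of the 6 libraries were of the Ptprca strain. The other 7 libraries came from the bone marrow and spleen of 3 NSG mice at disease (mice 4, 5 and 6) and from 1 baseline sample of the progenitors. Neither the labels nor the design text used here state ages, cell doses, the route of transplantation or a gate that separates leukaemia from host cells. Host cells carry no barcode and add nothing to the shares. The table holds DNA barcodes only, so the organ labels could not be set against marker genes.

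As background, MLL-AF9 is a fusion of a chromatin regulator with a transcription elongation factor, and it turns haematopoietic progenitors into a transplantable acute myeloid leukaemia. Ptprca mice are congenic with C57BL/6 and differ from it at the leucocyte antigen CD45, which separates host from donor cells while the host keeps its immune system. NSG mice lack mature lymphocytes and natural killer cells. Leukaemia of this kind fills the bone marrow and spreads to the spleen, a blood-filtering organ that can host blood formation outside the marrow. A SPLINTR barcode is a short DNA tag that is integrated into the genome and inherited by every daughter cell. The share of a barcode in a library therefore stands for the share of a clone among the barcoded cells, and it says nothing of the number of leukaemia cells in the organ.

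The 6 libraries held between 2484519 and 5252942 reads, each in 2 technical repeats. The value that 3 reads in the shallower repeat would give, taken as the floor, ran from 0.575 to 8.80 CPM. The highest floor was that of the bone marrow of mouse 3, where 1 repeat held 170453 reads. The log2 ratio of the repeats had an SD of 0.301 to 0.461 for barcodes at 100 to 1000 CPM, and of 0.754 to 1.51 for those at 10 to 100 CPM. Floors cover counting error only, since several PCR reads can stem from the same molecule and no molecular identifiers were counted.

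Of the 2505 barcodes, 579 were above 0 in at least 1 of the 6 libraries. They comprised 411 seen in both organs, 83 seen in bone marrow only and 85 seen in spleen only. The 345 members held between 99.82% and 99.97% of the reads of each library. Among them, 155 were above 0 in all 6 libraries and 111 were at 10 CPM or more in all 6. They were present in 1 mouse (67 barcodes), 2 mice (85) or 3 mice (193). All but 2 members were also above 0 at baseline. Just inside the limit, 34 members had a second highest value of 10 to 20 CPM, and just outside it, 26 barcodes had one of 5 to 10 CPM.

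Spleens were made up of few large clones and bone marrows of many intermediate ones. The effective number of barcodes, the exponentiated Shannon entropy of a library, counts how many equally large clones would give the same diversity. It was 64.4, 69.0 and 64.5 in the bone marrows of mice 1, 2 and 3, and 17.2, 23.5 and 15.8 in their spleens. The organs did not overlap, and the lowest bone marrow lay well above the highest spleen. The mean was 66.0 ± 2.65 in bone marrow and 18.8 ± 4.14 in spleen (SD, n = 3 each). The difference within a mouse was -47.1 (SD 1.62 over 3 mice). An exact two-sided sign-flip test over the 3 pairs gave p = 0.25, the smallest that 3 pairs allow, so no measure of this kind could pass 0.05.

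The largest clone held 5.94%, 7.29% and 8.07% of the bone marrows of mice 1, 2 and 3, and 27.7%, 18.7% and 36.7% of their spleens. Each spleen was above every bone marrow, and the mean difference was 20.6 percentage points (SD 8.64, exact sign-flip p = 0.25). The 5 largest clones together held 25.6% ± 1.34 of bone marrow and 63.7% ± 7.48 of spleen, and the 10 largest held 39.8% ± 0.638 and 77.9% ± 2.87 (SD, n = 3 each). To reach 50% of the barcodes read, 15, 16 and 15 clones were needed in bone marrow and 3, 4 and 2 in spleen. The contrast thus lay at the top of the ranking of each library.

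The numbers of clones above a limit showed where along the abundance scale the organs parted. Clones at 5% or more numbered 2 in each bone marrow and 5, 4 and 3 in the spleens. Clones at 1% or more numbered 27, 32 and 31 in bone marrow and 13, 16 and 13 in spleen. At 1000 CPM or more there were 97.7 ± 1.15 clones in bone marrow and 57.3 ± 6.51 in spleen (SD, n = 3 each). At 10 CPM or more the organs were close, with 255, 241 and 230 barcodes in bone marrow and 240, 237 and 238 in spleen (difference -3.67, SD 11.5, exact sign-flip p = 0.75). Of 11 such measures, 9 differed in the same direction in 3 of 3 mice, each with an adjusted p of 0.306 over the 11 exact tests. The exceptions were the number at 10 CPM or more and the number above 0. All 11 measures are taken from the shares of the same 6 libraries, so they are not separate evidence.

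A single clone, GFP_Barcode_117983, was a large spleen clone in every mouse. It held 0.225%, 0.915% and 0.509% of the bone marrows of mice 1, 2 and 3 and 12.4%, 18.7% and 36.7% of their spleens. All 3 spleens were far above all 3 bone marrows. The ratios of spleen to bone marrow were 55.1, 20.4 and 72.0. It was the most abundant barcode of the spleens of mice 2 and 3 and the second of that of mouse 1. At baseline it stood at 55.7 CPM, in the class of the rarest members. On the log2(CPM + 1) scale, which understates the differences of rare barcodes, spleen was higher than bone marrow by 5.44 (SE 0.57). The adjusted p of limma, paired by mouse over the 345 barcodes, was 0.0631, so it was not called at 0.05.

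The call for GFP_Barcode_117983 depended on the setting, while its direction was the same in the 15 alternatives that kept it. Of these, 7 gave an adjusted limma p under 0.05, such as 0.0424 with a pseudocount of 10, 0.00175 when 10 CPM was asked in 3 libraries and 0.00587 with centred log-ratios. It missed the threshold in the other 8, among them the fit with the spread over 12 libraries (0.758) and each fit without 1 mouse. The difference was 5.07 to 5.98 with each mouse left out (limma adjusted p = 0.296 to 0.462).

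GFP_Barcode_14277 was the other barcode at 1% or more of every spleen whose spleens all exceeded its bone marrows. It held 0.0853%, 2.54% and 0.165% of the bone marrows of mice 1, 2 and 3 and 10.1%, 12.5% and 3.45% of their spleens. The gap was narrow between the highest bone marrow, that of mouse 2, and the lowest spleen, that of mouse 3. The ratio within a mouse was 118, 4.94 and 20.9. The log2 difference was 4.52 (SE 0.96, limma adjusted p = 0.256).

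GFP_Barcode_98919 was among the 10 most abundant barcodes of both organs, and its mice differed. It held 1.17%, 4.28% and 2.76% of the bone marrows and 10.2%, 3.56% and 15.4% of the spleens of mice 1, 2 and 3. Spleen was 8.75-fold higher in mouse 1 and 5.59-fold higher in mouse 3, whereas in mouse 2 it was below bone marrow. The organs overlapped, and the log2 difference was 1.78 (SE 0.78, limma adjusted p = 0.521).

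Other spleen clones were large in 1 mouse only. GFP_Barcode_113284 was the largest clone of the spleen of mouse 1, at 27.7% against 1.47% of its bone marrow. In mouse 2 it held 0.272% of bone marrow and 0.340% of spleen, and in mouse 3 it held 0.0641% and 0.0226%. Its mean over mice therefore rested on mouse 1, and the log2 difference of 1.02 (SE 1.21, limma adjusted p = 0.730) turned to -0.59 without that mouse.

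The spleen of mouse 2 held 2 clones of this kind. GFP_Barcode_43077 made up 0.935% of its bone marrow and 10.2% of its spleen, while in mice 1 and 3 the spleen was lower than the bone marrow, at 0.0184% against 0.280% and 0.0893% against 0.135%. GFP_Barcode_72631 made up 0.712% of its bone marrow and 9.17% of its spleen. In mouse 3 this clone was 18.6-fold lower in spleen (0.917% and 0.0492%), and in mouse 1 the organs were at 0.678% and 0.507%. For both barcodes the mean log2 difference was slightly negative, at -0.35 and -0.32 (limma adjusted p = 0.919 and 0.926), since a large difference in mouse 2 was set against opposite ones elsewhere.

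GFP_Barcode_12212 was among the rarest barcodes at baseline, at 2.66 CPM. In mouse 1 it held 0.0471% of bone marrow and 8.98% of spleen, a ratio of 191. In mouse 2 it was at 0 in bone marrow and at 3208 CPM (0.321%) in spleen, which is at least 4366-fold above the bone marrow floor of 0.735 CPM, set by 3 reads in that library's shallower repeat. In mouse 3 it was at 0 in both organs. The clone was thus detected in 2 of the 3 mice and was higher in spleen in both. The limma adjusted p over the 3 mice was 0.439.

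Across the mice, 10 barcodes held 1% or more of at least 1 spleen at 8-fold or more of their share of the same mouse's bone marrow. Of these, 8 did so in 1 mouse, GFP_Barcode_14277 did so in mice 1 and 3, and GFP_Barcode_117983 did so in all 3. Those of mouse 1 were GFP_Barcode_113284, GFP_Barcode_117983, GFP_Barcode_98919, GFP_Barcode_14277 and GFP_Barcode_12212. Together they held 3.00% of the bone marrow and 69.3% of the spleen of that mouse. The 4 of mouse 2, which included GFP_Barcode_72169 at 0.106% and 1.59%, held 2.67% of bone marrow and 39.6% of spleen. Those of mouse 3 were GFP_Barcode_117983 and GFP_Barcode_14277 with GFP_Barcode_51224 (0.0378% and 1.41%) and GFP_Barcode_65352 (0.0225% and 1.21%), and they held 0.734% and 42.7%. These barcodes were chosen by the difference itself, so the values are a description.

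The change in composition within a mouse was measured as the sum of all gains in share from bone marrow to spleen, which equals the sum of all losses. It was 70.6, 62.0 and 62.5 percentage points in mice 1, 2 and 3. The largest gain was that of GFP_Barcode_113284 in mouse 1 (26.2 points) and of GFP_Barcode_117983 in mouse 2 (17.8 points) and mouse 3 (36.1 points). It made up 37.1%, 28.7% and 57.9% of all gains. In each mouse 3 clones accounted for 68.4%, 59.7% and 83.4% of the gain, and 5, 8 and 5 clones for 90% of it.

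The losses were spread over many clones. Barcodes at 1% or more of a mouse's bone marrow held 70.6%, 71.4% and 72.0% of that bone marrow and 58.3%, 43.1% and 45.7% of the spleen of the same mouse. The spleen sums include clones that gained, so the clones that fell lost more than the sums show. Among the gaining clones were GFP_Barcode_113284 (1.47% and 27.7%) and GFP_Barcode_98919 (1.17% and 10.2%) in mouse 1. Others were GFP_Barcode_14277 in mouse 2 (2.54% and 12.5%) and GFP_Barcode_98919 in mouse 3 (2.76% and 15.4%). Of the barcodes at 1% or more of bone marrow, 9, 15 and 12 were at least 8-fold lower in the spleen of mice 1, 2 and 3, out of 27, 32 and 31. In each mouse 9 barcodes were at 1% or more in both organs.

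Several clones were lower in spleen in all mice, though none passed the test. GFP_Barcode_101916 held 0.478%, 1.69% and 0.293% of the bone marrows of mice 1, 2 and 3 and 0.0195%, 0.0554% and 0.0178% of their spleens, which was 24.4-, 30.4- and 16.4-fold lower. Every spleen was below every bone marrow. The log2 difference was -4.52 (SE 0.71, limma adjusted p = 0.206).

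GFP_Barcode_122306 held 1.27%, 1.24% and 1.05% of bone marrow and 0.0245%, 0.127% and 0.0739% of spleen. Its bone marrow shares were nearly equal in the 3 mice, and its spleen shares varied more. The log2 difference was -4.27 (SE 0.77, limma adjusted p = 0.206). GFP_Barcode_22108 held 1.73%, 1.28% and 1.76% of bone marrow and 0.233%, 0.109% and 0.112% of spleen, again with no overlap (log2 difference -3.47, SE 0.61, limma adjusted p = 0.206).

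GFP_Barcode_96571 went from 1.98%, 1.31% and 2.56% of bone marrow to 0.358%, 0.257% and 0.376% of spleen, 5.53-, 5.10- and 6.80-fold lower. This ratio was the most even among the named barcodes that were lower in spleen in all mice by over 2 on the log2 scale (log2 difference -2.53, SE 0.55, limma adjusted p = 0.256). GFP_Barcode_81719 was 26.9-, 11.3- and 14.9-fold lower in spleen, although its bone marrow share ranged from 0.00497% in mouse 1 to 1.30% in mouse 2, so its groups overlapped (log2 difference -3.85, limma adjusted p = 0.256). GFP_Barcode_81719 was thus lower in spleen at very different bone marrow shares, but its ratio in mouse 1 is uncertain. There it was at 49.7 CPM in bone marrow and 1.85 CPM in spleen, where the floor was 0.629 CPM. The repeats of that bone marrow library had an SD of 1.51 in log2 ratio at 10 to 100 CPM.

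The most abundant bone marrow clones were as a rule also sizeable in spleen. GFP_Barcode_69276, the largest clone of the bone marrows of mice 2 and 3, held 2.73%, 7.29% and 8.07% of the bone marrows of mice 1, 2 and 3 and 1.63%, 3.86% and 4.67% of their spleens. Spleen was lower by a factor of 1.68, 1.89 and 1.73, a nearly constant ratio (log2 difference -0.82, SE 0.44, limma adjusted p = 0.541). GFP_Barcode_44375 held 3.32%, 4.37% and 3.67% of bone marrow and 1.61%, 4.62% and 2.82% of spleen, and in mouse 2 the organs were almost equal (log2 difference -0.45, limma adjusted p = 0.710). GFP_Barcode_39453 held 2.04%, 1.12% and 7.47% of bone marrow and 4.08%, 4.49% and 5.89% of spleen, higher in spleen in 2 mice and lower in mouse 3 (log2 difference 0.89, limma adjusted p = 0.586).

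The other 6 of the 10 largest bone marrow clones, apart from GFP_Barcode_98919 described above, had lower means in spleen. GFP_Barcode_52357, the largest clone of the bone marrow of mouse 1 at 5.94%, held 1.78% of that mouse's spleen, and in mice 2 and 3 the organs were within a factor of 1.37 and 1.16. GFP_Barcode_618 held 5.92%, 0.676% and 0.571% of bone marrow and 0.590%, 0.107% and 0.225% of spleen (log2 difference -2.45, SE 0.67, limma adjusted p = 0.327). GFP_Barcode_24738 was lower in spleen by a factor of 3.13, 2.31 and 2.89, with no overlap between organs (log2 difference -1.46, limma adjusted p = 0.433).

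The last 3 of the 10 largest bone marrow clones varied between mice. GFP_Barcode_1218 was 8.66- and 8.23-fold lower in the spleens of mice 1 and 2 and 1.61-fold higher in that of mouse 3. GFP_Barcode_22403 was 2.33- and 3.47-fold lower in mice 1 and 2 and nearly equal in mouse 3. GFP_Barcode_3138 was 1.71-, 4.19- and 1.18-fold lower, and its share of the bone marrow ranged from 0.307% in mouse 3 to 5.62% in mouse 2. None of these 3 was called (limma adjusted p = 0.541 to 0.572).

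Recurrence between mice was counted at a limit of 1% of a library. In bone marrow 58 barcodes reached it in at least 1 mouse, of which 38 did so in 1 mouse, 8 in 2 mice and 12 in all 3. In spleen 26 barcodes reached it, of which 16 did so in 1 mouse, 4 in 2 and 6 in all 3. Of the 67 barcodes that reached it anywhere, 17 did so in both organs, 41 in bone marrow only and 9 in spleen only. The 6 found in all spleens were GFP_Barcode_14277, GFP_Barcode_39453, GFP_Barcode_44375, GFP_Barcode_69276, GFP_Barcode_98919 and GFP_Barcode_117983. Of these, 4 were also at 1% or more in all 3 bone marrows, and the other 2 were GFP_Barcode_14277 and GFP_Barcode_117983.

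Over all 345 members, limma paired by mouse called 0 barcodes (0%) at an adjusted p of 0.05, with 37 (10.7%) at an unadjusted p under 0.05. Of those 37, 3 were higher and 34 lower in spleen. Spleens lay above all bone marrows for 4 barcodes (1.16%), which were GFP_Barcode_117983, GFP_Barcode_14277, GFP_Barcode_57652 and GFP_Barcode_14177, and below all of them for 24 (6.96%). In 3 of 3 mice, 10 barcodes (2.9%) were higher in spleen and 70 (20.3%) were lower. Only the 193 members present in all 3 mice could count there, while the percentages are over 345. The median log2 difference was -0.94, and 255 barcodes had a lower mean in spleen against 90 with a higher one. A member absent from a mouse had a difference of 0 in it, which draws its mean towards 0. On simulated data with the same libraries and spread, changes of 2, 4 and 6 in log2 units were detected in 0, 4 and 7 of 20 barcodes each. A count of 0 calls therefore does not show that the organs were alike. Without the block the count was 1, and with the mouse as a random effect it was 24, 4 higher and 20 lower in spleen. The 4 were GFP_Barcode_117983, GFP_Barcode_14277, GFP_Barcode_98919 and GFP_Barcode_12212, and the 20 included GFP_Barcode_101916, GFP_Barcode_122306, GFP_Barcode_22108, GFP_Barcode_96571, GFP_Barcode_81719 and GFP_Barcode_618. The random-effect fit sets 1 correlation, 0.821, for all barcodes, also for those whose mice differed. Of its 4 higher calls, GFP_Barcode_98919 was lower in spleen in mouse 2, and GFP_Barcode_12212 was at 0 in both organs of mouse 3.

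The split of directions depended on the scale. With the shares rescaled without GFP_Barcode_117983, the median was -0.62, with 110 of 344 barcodes higher and 234 lower. With centred log-ratios, which measure each barcode against the geometric mean of all members, the median was -0.07, with 166 higher and 179 lower, and 75 barcodes were higher and 39 lower in 3 of 3 mice. That centring sets the mean difference to 0 by construction, so its near-even split says nothing of why most shares were lower. It also gives a difference to members at 0 in both organs of a mouse (51, 76 and 92 in mice 1, 2 and 3). The 75 can thus include barcodes absent from 1 or 2 mice, and they are not a count of clones higher in every mouse. All these directions concern shares of a library and not cell numbers.

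The organ difference varied with the abundance of the clone. The 25 members with a mean of 10000 CPM or more over the 6 libraries held 49.2% of bone marrow and 85.6% of spleen, with a median log2 difference of -0.62. Of these, 2 were higher in 3 of 3 mice and 8 were lower. The 83 members with a mean of 1000 to 10000 CPM held 42.6% of bone marrow and 11.8% of spleen. Of them, 33 were lower and 1 higher in 3 of 3 mice, and their median was -1.62, against -0.94 over all members. This was the class with the lowest median among the 4 classes of abundance.

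In each mouse this intermediate class held 36.9%, 42.3% and 48.7% of bone marrow and 9.73%, 12.2% and 13.4% of spleen. The 128 members between 100 and 1000 CPM held 7.55% of bone marrow and 2.28% of spleen (median -1.09, 6 higher and 23 lower in 3 of 3 mice). The 109 members under 100 CPM held 0.486% and 0.312% (median -0.16, 1 higher and 6 lower). Members absent from a mouse entered with a difference of 0 in it, and the log2(CPM + 1) scale understates differences of rare barcodes. Both can draw the median of this class towards 0. The classes were cut on the mean of the same libraries, so these values are a description.

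Grouped by baseline, the 84 members at 1000 CPM or more in the progenitors held 42.1% of bone marrow and 28.9% of spleen (median log2 difference -1.15, 1 higher and 30 lower in 3 of 3 mice). The 184 members at 100 to 1000 CPM held 47.7% and 40.1% (median -0.88, 6 higher and 32 lower). The 75 members above 0 and under 100 CPM held 10.1% and 30.9% (median -0.84, 3 higher and 8 lower). GFP_Barcode_117983 made up most of the spleen share of this class of rare progenitor clones. Without it, the other 74 held 9.89%, 8.31% and 10.5% of the bone marrows of mice 1, 2 and 3 and 11.2%, 12.4% and 1.35% of their spleens. Their sum was thus somewhat higher in spleen in mice 1 and 2 and lower in mouse 3 (mean 8.31% in spleen against 9.55%). The higher sums each rested on 1 clone of this class. GFP_Barcode_12212 held 0.0471% of the bone marrow and 8.98% of the spleen of mouse 1. GFP_Barcode_43077 held 0.935% and 10.2% in mouse 2. The sums of mice 1 and 2 therefore do not show that rare progenitor clones were in general higher in spleen.

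Over all members the ranking of barcodes was alike in both organs of a mouse. Spearman's rho between the bone marrow and the spleen of a mouse was 0.884, 0.864 and 0.887 over the 345 barcodes, which are not independent replicates and share the library and its depth. Similarity of the shares themselves, as 1 minus the Bray-Curtis distance, was 0.294, 0.380 and 0.375 between the organs of mice 1, 2 and 3. Between a bone marrow and a spleen of different mice it averaged 0.295 (0.266 to 0.342 over 6 pairs). The excess for the same mouse was 0.0548, with an exact one-sided permutation p of 0.167, the smallest that 6 matchings allow. Libraries of the same organ from different mice had higher values, with 0.462 ± 0.0244 among spleens and 0.437 ± 0.0400 among bone marrows (SD over 3 pairs). These pairs share libraries, and that difference was not tested.

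No barcode was restricted to 1 organ across mice: of those at 10 CPM or more in at least 2 libraries of an organ, 0 were at 0 in all 3 libraries of the other. Within a mouse, 13, 5 and 7 barcodes at 10 CPM or more in bone marrow were at 0 in the spleen of mice 1, 2 and 3, the highest at 92.9 CPM. In the other direction, 2, 11 and 16 barcodes at 10 CPM or more in spleen were at 0 in bone marrow. The highest of these was GFP_Barcode_2719 at 116 CPM in mouse 1, GFP_Barcode_12212 at 3208 CPM in mouse 2 and GFP_Barcode_39573 at 47.6 CPM in mouse 3.

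Some barcodes kept a near-constant ratio to one another through organs and mice. Among the 89 barcodes at 30 CPM or more in all 6 libraries, 10 of 3916 pairs had an SD of the log2 ratio of 0.35 or less, where the median pair had 2.32. They formed 7 sets with 16 barcodes in all. The limit was chosen after the values were seen, so this is a description. GFP_Barcode_618 and GFP_Barcode_117016 had a ratio of 5.62 to 6.02 in the 6 libraries, although GFP_Barcode_618 varied 55.6-fold between them. Outside these libraries the ratio was 7.46, 6.15 and 5.69 in the bone marrows of NSG mice 4, 5 and 6, 5.78, 3.21 and 5.69 in their spleens and 6.32 at baseline.

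GFP_Barcode_2713 and GFP_Barcode_81016 likewise stayed at a ratio of 1.16 to 1.32, and GFP_Barcode_69276 and GFP_Barcode_7083 at 7.09 to 9.08. At baseline these ratios were 1.31 and 9.07. Among NSG spleens (mice 4, 5 and 6) the first was 0.305, 0.362 and 3.59 and so did not hold, and the second was 7.92, 5.71 and 7.45. By contrast, the ratio of GFP_Barcode_1831 to GFP_Barcode_66988 was 1.98 to 2.63 in the 6 libraries and 23.6 at baseline. Whether the sets mark cells that carried more than 1 barcode was not tested. Such barcodes are not separate evidence for an organ difference. With each set summed, 0 of 336 barcodes were called by limma, with 34 at an unadjusted p under 0.05, and the difference in effective number was -43.4.

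The set of GFP_Barcode_57652, GFP_Barcode_15540 and GFP_Barcode_14177 is one such case. GFP_Barcode_14177 joined it only through GFP_Barcode_15540. The ratio of GFP_Barcode_57652 to GFP_Barcode_14177 ran from 1.97 to 4.88, with an SD of 0.492 on the log2 scale, above the limit of 0.35. GFP_Barcode_57652 was at 148, 164 and 67.0 CPM in the bone marrows and at 672, 1249 and 201 CPM in the spleens of mice 1, 2 and 3. Spleen was 4.52-, 7.60- and 2.99-fold higher, with no overlap (log2 difference 2.22, SE 0.92, limma adjusted p = 0.521). GFP_Barcode_15540 was at 87.9, 106 and 56.0 CPM in bone marrow and 454, 753 and 91.8 CPM in spleen, where the spleen of mouse 3 lay below the bone marrow of mouse 2. Its bone marrow value in mouse 3 was the mean of 6.48 and 106 CPM in the 2 repeats, so that this difference is uncertain.

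Whether the organ difference was another one in NSG mice was tested as a limma interaction over the same 345 barcodes and all 12 disease libraries. No barcode passed (0 of 345, 0%), with 17 at an unadjusted p under 0.05. The members were chosen on the Ptprca libraries only, and some were at or near 0 in every NSG library. For these the interaction only turns the sign of the Ptprca difference and cannot compare the hosts. GFP_Barcode_56, at 0 in all NSG libraries, had -2.45 in Ptprca mice and an interaction of 2.45. What size of interaction could be detected was not tested. For GFP_Barcode_117983 the bone marrows of NSG mice 4, 5 and 6 held 0.241%, 0.353% and 0.0376%, and their spleens held 7.99e-05%, 5.89% and 0.251%. Spleen was thus lower than bone marrow in NSG mouse 4 and higher in NSG mice 5 and 6. The spleen value of NSG mouse 4 lay under the floor of that library, so the size of that mouse's difference is uncertain. That difference weighs on the interaction, which was -6.63 on the log2 scale (limma adjusted p = 0.660). For GFP_Barcode_14277 the NSG bone marrows held 0.00562%, 0.0851% and 0.0144% and the spleens 0.0273%, 0.0295% and 0, with an interaction of -6.67 (limma adjusted p = 0.660). For GFP_Barcode_101916, lower in every Ptprca spleen, the interaction was 0.97 (limma adjusted p = 0.952). The repeats of the NSG spleens differed most (SD of their log2 ratio 1.57 to 2.26 at 100 to 1000 CPM), and their part in these results was not tested.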

How the data were processed

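DNA barcodes of leukaemia cells were amplified from lysates in 2 rounds of PCR and sequenced, per the labels' protocols. The deposited table gives CPM per barcode and library, and each library sums to 1000000. The submitters' processing notes name Bowtie 1.2.2 and R 3.6, without settings. Every distinct value under 60 CPM in the 6 Ptprca libraries (689 of 689) was the mean of 2 repeats, each with whole reads over its own total. For 1422 of 1422 values above 0 and under 1000 CPM, the reads of each repeat followed uniquely. Because the values average 2 repeats of unequal depth, no count model was fitted.

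A limma 3.58.1 fit (R 4.3.3) of log2(CPM + 1) over the 345 barcodes had the mouse as a block and a trended variance prior, and p-values were adjusted by Benjamini-Hochberg, with calls at 0.05. Same-numbered libraries came from the same animal by their labels, and their deviations from the organ means correlated at 0.828, 0.819 and 0.801. The 67 members present in 1 mouse had to reach 10 CPM in both of its organs. These correlations are thus partly set by the choice of members, and the pairing rests on the labels. Measures per library were compared by exact sign-flip and permutation tests (Python 3.11.15, numpy 2.4.6, pandas 2.3.3, scipy 1.17.1). The fit was tested on simulated data, with 0 false calls among 285 unchanged barcodes.

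Named barcodes were the 10 with the highest mean in each organ, the largest of each library and, with none called, the 5 with the smallest p per direction among those that moved alike in 3 mice, which gave 24. Barcodes named outside this rule were chosen after their values were seen. Alternatives were other pseudocounts, filters, variance priors, scalings, pairings and mice left out. Members and lists were chosen with earlier results of these data known, and the summing of co-varying barcodes was added after seeing the data. Barcode sequences were not used here.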

Additional observations from a re-analysis of the deposited data

Results flagged for a closer look

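GFP_Barcode_57652 was higher in spleen in all 3 Ptprca mice and lower in spleen in all 3 NSG mice. In NSG mice 4, 5 and 6 it was at 5470, 4846 and 5011 CPM in bone marrow and at 779, 0 and 124 CPM in spleen. The interaction, NSG minus Ptprca, was -9.01 on the log2 scale and did not pass (limma adjusted p = 0.362). GFP_Barcode_15540, which co-varies with it and is not separate evidence, showed the same opposition with an interaction of -9.69 (limma adjusted p = 0.276). The value of 0 in the spleen of NSG mouse 5 weighs on both, and the repeats of the NSG spleens differed most.

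GFP_Barcode_7403 was not a member, because it reached 10 CPM in 1 library only. It was at 938 CPM in the bone marrow of Ptprca mouse 3, with 756 and 1121 CPM in the 2 repeats, against a floor of 8.80 CPM. In the spleen of the same mouse it was at 3.63 CPM, its second highest value in the 6 libraries. Of the 234 barcodes above 0 that were not members, 71 reached 10 CPM in 1 library, 36 of them in a bone marrow and 35 in a spleen, and 9 reached 100 CPM.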

How the results depend on the processing

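The count of called barcodes, 0 with the mouse as a block, was 1 with a pseudocount of 10, 1 with a filter of 10 CPM in 3 libraries, 1 with a filter of 100 CPM in 2 libraries, 1 with a robust variance prior, 1 with centred log-ratios and 1 with no replicate block, each time GFP_Barcode_117983, higher in spleen. With the mouse as a random effect (consensus correlation 0.821) it was 24, 4 higher and 20 lower. Leaving out each mouse gave 0 to 1, and the 1, without mouse 1, was GFP_Barcode_86249, lower in spleen and at 0.0489% or less of each of the 6 libraries. It was 0 in the 6 others run. The interaction had 0 calls except 1 with a filter of 100 CPM. The differences in effective number, largest share and similarity kept their direction in every alternative run (with each mouse left out -48.0 to -46.4, 16.6 to 25.1 points and 0.0419 to 0.0659). Without the pairing, the exact permutation p of the first 2 was 0.1, the smallest that this test allows with 3 libraries per organ.

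Of 382 alternatives of the 24 named barcodes, 10 turned the direction of 6 barcodes, none of which was called. With centred log-ratios the log2 differences were 0.054 for GFP_Barcode_69276, 0.43 for GFP_Barcode_44375, 0.070 for GFP_Barcode_52357, 0.52 for GFP_Barcode_43077 and 0.56 for GFP_Barcode_72631. Without the most abundant spleen barcode they were 0.020 for GFP_Barcode_43077 and 0.057 for GFP_Barcode_72631. With each mouse left out they ran from -0.59 to 2.28 for GFP_Barcode_113284, from -2.26 to 1.43 for GFP_Barcode_43077 and from -2.32 to 1.63 for GFP_Barcode_72631. The cause was not tested. Precision was limited by 3 pairs and, under 100 CPM, by the repeats.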
